A study of Mus musculus with 30 samples.

Results

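The response of Xbp1 knockout telencephalic cultures to 24 h of BDNF was described from 10 of the 30 arrays of the study, which are the 5 arrays of knockout dishes treated with BDNF for 24 h and the 5 arrays of knockout dishes without BDNF (basal). Membership followed the sample titles alone, and every gene above a low-signal filter was tested. The knockout dishes were Xbp1 -/- and came from 1 pool of telencephalon from 6 mouse embryos at embryonic day 12.5, divided over 15 dishes. BDNF was present at 100 ng/ml from day 3 in vitro in the treated dishes, and treated and basal dishes were both lysed on day 4, so that age in culture was the same. Wild-type (Xbp1 +/+) dishes from 1 pool of 4 embryos of the same matings, treated for 24 h or basal, 5 arrays each, served for the comparison of genotypes, and 10 arrays of 48 h dishes entered only the shared estimate of spread. All dishes were kept in serum-free medium with glutamine and a culture supplement. Because each genotype was 1 pool, the p-values measure the spread between dishes and not between animals. For the same reason, a difference between genotypes cannot be told apart from a difference between the pools. What part of Xbp1 the knockout lacks was not given in the sources used here.

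Brain-derived neurotrophic factor (BDNF) binds the receptor tyrosine kinase TrkB, the product of Ntrk2, and activates the ERK, PI3K and phospholipase C pathways in neurons. ERK signalling induces immediate-early transcription factors such as Fos and Egr1 and, with some delay, its own inhibitors of the Dusp, Sprouty and Spred families. In developing forebrain neurons BDNF is known for raising neuropeptide genes and the genes of inhibitory interneurons that make gamma-aminobutyric acid (GABA). XBP1, a transcription factor, acts in the unfolded protein response and widens the folding and export capacity of the endoplasmic reticulum (ER).

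Signals were Affymetrix intensities, divided by the median of the array and given as log2 (0 is the array median). A brighter gene cannot be read as a more abundant one, since each gene has its own probes. Array medians before scaling were 108 ± 11 intensity units with BDNF and 103 ± 6.77 in basal dishes of the knockout (SD, n = 5). The 3'/5' ratio of the Gapdh probe sets, which reflects RNA integrity, was 2.80 ± 0.19 with BDNF and 2.73 ± 0.10 in basal dishes. The number of arrays limits the precision. The first principal component of the 10 arrays, with 31.9% of the variance, separated the 5 BDNF arrays from the 5 basal ones. The second, with 18.0%, had BDNF replicate 1 at one end (15.3) and basal replicate 5 at the other (-14.8), while the other 8 arrays lay between -2.54 and 4.34. The list counts that moved most without these 2 arrays, an alternative chosen after the data were seen, are given both ways. Defining neuronal genes were high on all 10 arrays, with log2 signals of 5.66 to 6.08 for Stmn2, 5.93 to 6.19 for Dcx and 4.30 to 4.76 for Tubb3. Forebrain and interneuron transcription factors were measured as well, with 0.96 to 1.30 for Lhx2 and 1.44 to 1.75 for Lhx6. Markers of other cells were mixed, also within a cell type. Aqp4, Olig2 and Pecam1 never exceeded 0.199, 0.173 and 0.1 of the array median. Gja1, an astrocyte marker like Aqp4, had mean log2 signals of 5.29 with BDNF and 5.59 in basal dishes. Acta2, grouped with Pecam1 among endothelial and pericyte markers, had 5.86 with BDNF and 6.10 in basal dishes. Collagens of meningeal fibroblasts were bright as well. Xbp1 itself had log2 signals of 4.53, 4.63, 4.70, 4.63 and 4.63 with BDNF, against 4.53, 4.65, 4.68, 4.70 and 4.70 in basal dishes. The groups overlapped, and the change of -0.03 ± 0.06 (SE) did not pass the test (limma, adjusted p = 0.828). Wild-type means of this probe set were 4.55 with BDNF and 4.43 in basal dishes, against 4.62 and 4.65 in the knockout. The signal was thus not lower in the knockout. Because the part of Xbp1 that is lacking was not given, this signal does not check the genotype labels.

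In knockout dishes with BDNF, rises and falls were similar in number, and the rises went further. Of 7436 tested genes, 443 rose (5.96%) and 413 fell (5.55%) at an adjusted p under 0.05 in limma. In 20 of the 443, beside 39 of all 7436, the basal means of both genotypes lay under the lowest mean the low-signal filter let through. Those genes passed the filter only through BDNF arrays. A change of at least 1.5-fold was found in 79 genes that rose (1.06%) and in 17 that fell (0.229%). At 2-fold or more, 31 genes rose and 0 fell (0.417% and 0%). Of the 31, 10 were neuropeptide, granin or prohormone processing genes, from lists with 14 and 17 of the 7436 tested genes. Those lists were chosen with earlier results of these data known, and 3 of the 10 (Avp, Gal and Grp) passed the filter only through BDNF arrays. The 5 BDNF arrays did not overlap the 5 basal arrays in 693 genes (9.32%). In 512 genes (6.89%) the change also passed the test. Without BDNF replicate 1 and basal replicate 5, 798 genes rose and 376 fell, and 695 of the 856 changes were called again. Without BDNF replicate 2, 561 changes passed. With the intensities as deposited, without the median scaling, 181 genes rose and 20 fell, so that 90.0% of the calls were rises, against 51.8% with scaling.

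**Figure D1:**
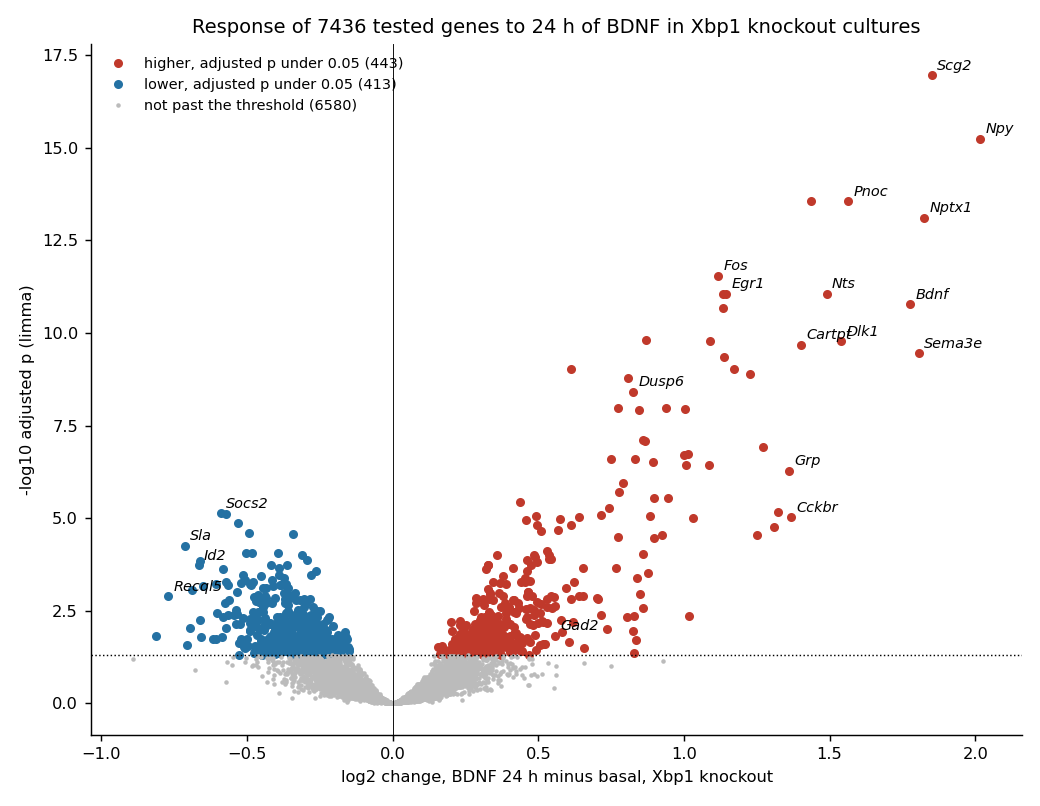
Each point is one of the 7436 tested genes, with the log2 change (BDNF 24 h over basal, knockout) on the horizontal axis and -log10 of the adjusted p on the vertical axis. Rises reach 2.02 (Npy), whereas the largest fall among genes without overlap between groups is -0.77 (Recql5).

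Most of the neuropeptide precursors tested rose. Of 14 tested precursors, 12 rose (85.7%, beside 5.96% of all tested genes) and 0 fell. The median log2 change was 1.14, beside 0.00457 over all tested genes. Another 14 precursors on the array, among them Vip, Pdyn, Cort and Tac2, were left out by the low-signal filter. The filter used the mean over all 30 arrays, most of them from BDNF dishes, and the basal means of Avp, Gal and Grp lay under the lowest mean it let through, so these 3 passed only through the BDNF arrays. With no filter, 13 of all 28 precursors on the array rose and 0 fell, with a median of 0.49. Npy, which encodes neuropeptide Y of cortical interneurons, had log2 signals of 2.56, 2.37, 2.47, 2.05 and 2.47 with BDNF, against 0.21, 0.42, 0.46, 0.49 and 0.25 in basal dishes. Every BDNF dish stood more than a log2 unit above every basal dish, and the rise was 2.02 ± 0.10 (4.05-fold, adjusted p = 5.72e-16). Pnoc, the precursor of nociceptin, had 2.71, 3.00, 3.08, 3.04 and 3.10 with BDNF and 1.49, 1.27, 1.58, 1.27 and 1.51 without. BDNF replicate 1 was the lowest of its group but still far above all basal dishes, and the rise was 1.56 ± 0.09.

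Nts, the precursor of neurotensin, had log2 signals of 2.96, 2.94, 3.05, 2.75 and 3.47 with BDNF and 1.34, 1.45, 1.76, 1.78 and 1.41 in basal dishes, a rise of 1.49 ± 0.11. Cartpt, which encodes the CART peptide, rose by 1.40 ± 0.12, Grp (gastrin-releasing peptide) by 1.36 ± 0.17 and Avp (vasopressin) by 1.32 ± 0.19. Tac1, the precursor of substance P, had 3.42, 3.39, 3.96, 3.95 and 4.17 with BDNF, against 2.63, 2.70, 1.70, 2.77 and 2.84 in basal dishes, and rose by 1.25 ± 0.19. Smaller rises were found for Gal (galanin, 1.03 ± 0.15), Adcyap1 (PACAP, 0.88 ± 0.13), Sst (somatostatin, 0.77 ± 0.08), Penk (proenkephalin, 0.74 ± 0.10) and Cck (cholecystokinin, 0.46 ± 0.11). For Cck the arrays of the groups overlapped, at 1.57 to 1.79 with BDNF and 0.74 to 1.69 in basal dishes. The 2 tested precursors that did not pass were Oxt (oxytocin, 0.07 ± 0.18) and Nxph1 (neurexophilin, 0.24 ± 0.14). Peptide receptors were among the largest rises too: Cckbr, a cholecystokinin receptor, rose by 1.37 ± 0.20 and Tacr3, the neurokinin B receptor, by 1.27 ± 0.15. The second probe sets of Cckbr and Tacr3 were near the floor and showed no called change. On the probe sets used, basal means of Cckbr and Tacr3 were -1.36 and -1.63 in the knockout and -0.57 and -1.07 in wild type. These lay under the lowest mean the filter let through (-0.395), so both receptor genes passed it only through the BDNF arrays.

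**Figure D2:**
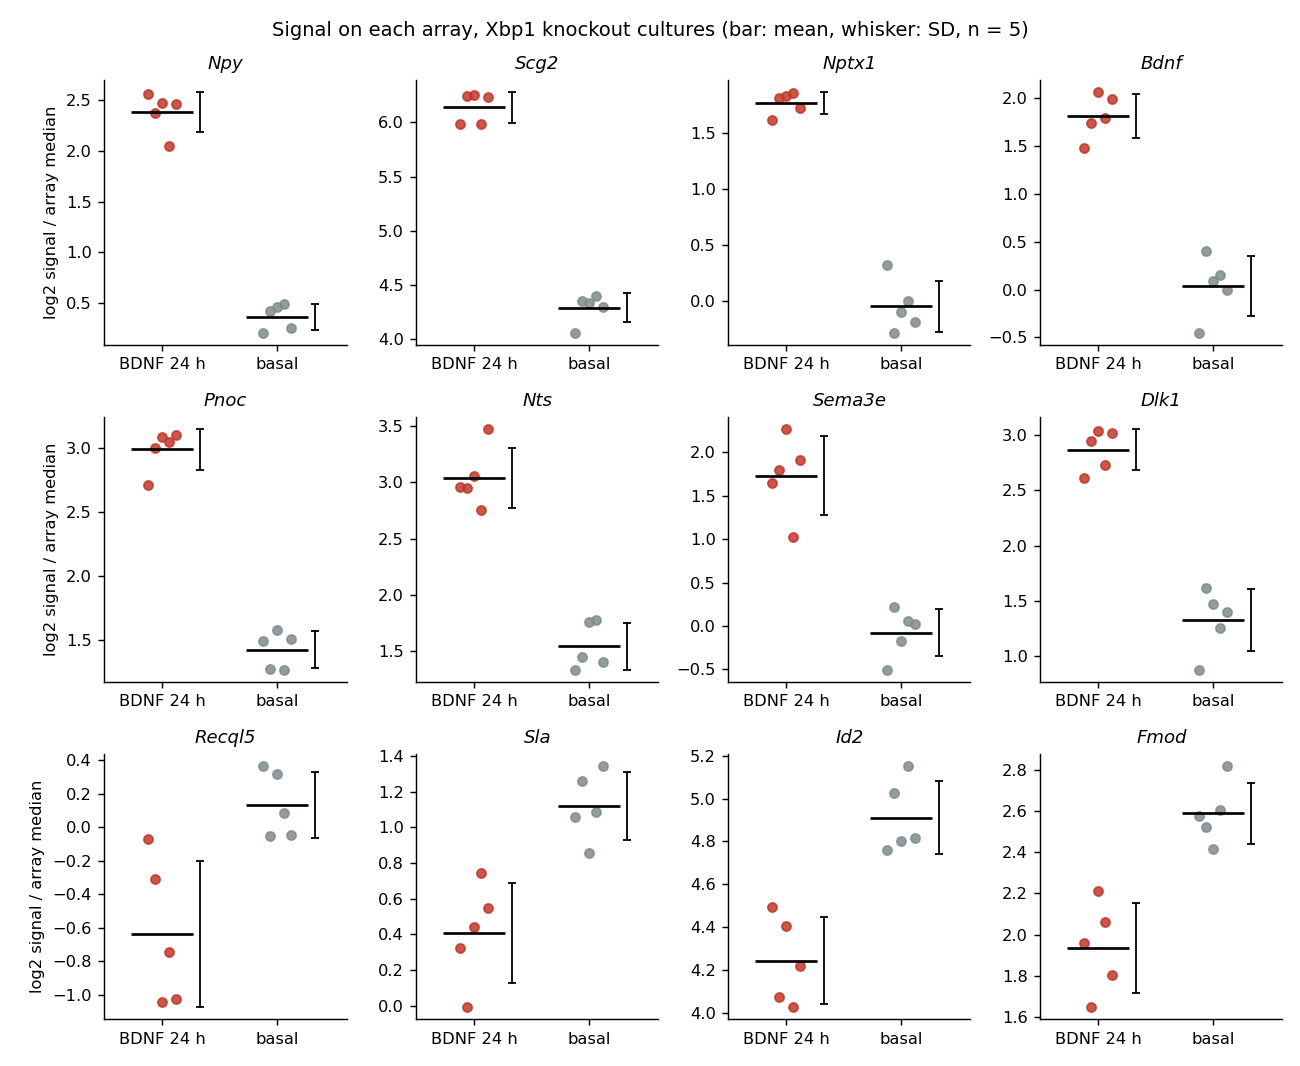
Log2 signal relative to the array median on each of the 5 BDNF 24 h (left) and 5 basal (right) knockout arrays for 8 genes that rose and 4 that fell; the bar is the mean and the whisker the SD. The 2 groups do not overlap for any of the 12 genes, and the distance is largest for Npy (2.02) and smallest for Fmod (-0.65).

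Proteins that store and process these peptides rose in part. Of 17 tested granins and processing genes, 7 rose (41.2%) and 1 fell (5.88%), beside 5.96% and 5.55% of all tested genes. The list median was 0.22. Scg2, a granin of the dense-core granule, had log2 signals of 5.99, 6.24, 6.25, 5.98 and 6.24 with BDNF, against 4.06, 4.35, 4.34, 4.40 and 4.29 in basal dishes. Both groups were tight, and the rise of 1.85 ± 0.08 (3.61-fold) had the lowest adjusted p of the named genes (1.10e-17). Pcsk1, the convertase that cuts prohormones, had -0.34, 0.01, 0.24, 0.07 and 0.32 with BDNF and -0.79, -0.82, -0.75, -0.86 and -0.96 without, a rise of 0.90 ± 0.12. Ptprn, a granule membrane protein, rose by 1.23 ± 0.11 and Syt4, a synaptotagmin of these granules, by 0.75 ± 0.09.

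The palindromic cAMP response element TGACGTCA, the letters bound by CREB, was searched for on both strands of the RefSeq promoter windows (GRCm38.p6, 250 bases before to 50 after each gene start). Of the 79 genes that rose at least 1.5-fold, 58 had a window, 85 windows in all, and 7 of these held it (8.24%). It occurred in 3.17% of the 7973 windows of all tested genes and in 1.79% of all 32851 windows. The 7 genes were Scg2, Cartpt, Pcsk1, Sst, Th, Cltb and Mitf. The AP-1 letters TGANTCA, which cannot match at the same 8 bases, were in 11 of the 85 windows (12.9%), in 4.58% of the windows of tested genes and in 7.81% of all windows. The EGR letters GCGTGGGCG were in 0 of the 85 windows and in 1.25% of those of tested genes, and CArG boxes of SRF and the ER stress element were in 0 of the 85, beside 0.151% of windows of tested genes for the ER stress element. Of the 17 genes that fell at least 1.5-fold, 11 had a window, 12 in all, with the cAMP response element in 0 and AP-1 in 1. These counts describe letters and no binding was measured. The 250 bases before the gene start of the 4 peptide and processing genes among the 7 are shown, with the element in capitals, because these genes share it at 48 to 112 bases before the start. They lie at chr1:79440027-79440276 (Scg2, minus strand), chr13:99900684-99900933 (Cartpt, minus strand), chr13:75089607-75089856 (Pcsk1, plus strand) and chr16:23890845-23891094 (Sst, minus strand), and the element begins 68, 112, 78 and 48 bases before the start.
Scg2: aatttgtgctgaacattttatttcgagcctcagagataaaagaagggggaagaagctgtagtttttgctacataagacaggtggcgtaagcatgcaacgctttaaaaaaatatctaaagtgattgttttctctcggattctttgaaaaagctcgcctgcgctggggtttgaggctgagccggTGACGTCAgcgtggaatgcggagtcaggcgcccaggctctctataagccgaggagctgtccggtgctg
Cartpt: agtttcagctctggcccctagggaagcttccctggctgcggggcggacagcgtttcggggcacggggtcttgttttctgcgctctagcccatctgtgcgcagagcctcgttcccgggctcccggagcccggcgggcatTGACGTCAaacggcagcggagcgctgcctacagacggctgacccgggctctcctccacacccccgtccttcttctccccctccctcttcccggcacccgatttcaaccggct
Pcsk1: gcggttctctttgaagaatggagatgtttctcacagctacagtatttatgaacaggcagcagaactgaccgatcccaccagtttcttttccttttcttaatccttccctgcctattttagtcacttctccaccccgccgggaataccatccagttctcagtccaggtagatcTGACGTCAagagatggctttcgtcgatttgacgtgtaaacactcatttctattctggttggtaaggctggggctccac
Sst: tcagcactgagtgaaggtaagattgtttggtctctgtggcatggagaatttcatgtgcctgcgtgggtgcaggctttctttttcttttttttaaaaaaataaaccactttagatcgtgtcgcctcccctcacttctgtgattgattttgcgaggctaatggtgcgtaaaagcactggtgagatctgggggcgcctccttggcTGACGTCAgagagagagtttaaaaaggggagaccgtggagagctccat

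Genes of synapses and of neurotrophin signalling included Bdnf itself. Bdnf had log2 signals of 1.48, 1.74, 2.07, 1.80 and 1.99 in BDNF dishes, against -0.45 to 0.40 in basal dishes, and the rise was 1.78 ± 0.14 (3.42-fold, adjusted p = 1.66e-11). A second Bdnf probe set gave a smaller rise of 0.82 ± 0.13. Bdnf was the only one of 7 tested neurotrophin and receptor genes that passed. Ntrk2, the gene of the receptor TrkB, had a log2 change of -0.22 ± 0.08 (adjusted p = 0.072), and Ngfr, Sort1, Sorl1, Sorcs3 and Ndrg4 lay between -0.05 and 0.04. Nptx1, a pentraxin that clusters AMPA receptors, had 1.62, 1.82, 1.84, 1.86 and 1.73 with BDNF, against 0.32, -0.28, -0.10, 0.00 and -0.19 without, and rose by 1.82 ± 0.11. Its second probe set gave 0.62 ± 0.23 (adjusted p = 0.126). Among 11 pentraxins, C1q-family genes and secreted synapse organizers, 3 rose (27.3%) and 1 fell (9.09%), with a median of -0.06. Over all tested genes the shares were 5.96% and 5.55%. Lgi1, a secreted ligand of synaptic ADAM22, rose by 0.47 ± 0.09.

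Feedback inhibitors of ERK and its immediate-early transcription factors were among the genes still raised after 24 h. Of 13 tested feedback and target genes, 6 rose (46.2%) and 1 fell (7.69%), beside 5.96% and 5.55% of all tested genes. The list median was 0.28. Dusp6, the phosphatase that inactivates ERK, had log2 signals of 1.22, 1.18, 1.13, 1.16 and 1.30 with BDNF, against 0.25, 0.16, 0.53, 0.46 and 0.47 in basal dishes, a rise of 0.82 ± 0.08. Phlda1 rose by 0.49 ± 0.08 and Spry2, a Sprouty inhibitor of receptor tyrosine kinase signalling, by 0.39 ± 0.09. Ier3, an early response gene, fell by 0.43 on the log2 scale. Of 14 tested immediate-early genes, 5 rose (35.7%) and 1 fell (7.14%), with a median of 0.16. Egr1 had 3.99, 3.92, 3.74, 3.76 and 3.79 with BDNF and 2.79, 2.62, 2.74, 2.76 and 2.58 without, a rise of 1.14 ± 0.09. Fos had 4.20, 4.43, 4.52, 4.46 and 4.60 with BDNF and 3.14, 3.35, 3.47, 3.25 and 3.43 without, a rise of 1.12 ± 0.08. For both genes every BDNF array stood above every basal array. Jund rose by 0.70 ± 0.15 and Ier2 by 0.64 ± 0.09, whereas Arc, Fosb, Junb and Nr4a3 were under the low-signal filter and were not tested.

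**Figure D3:**
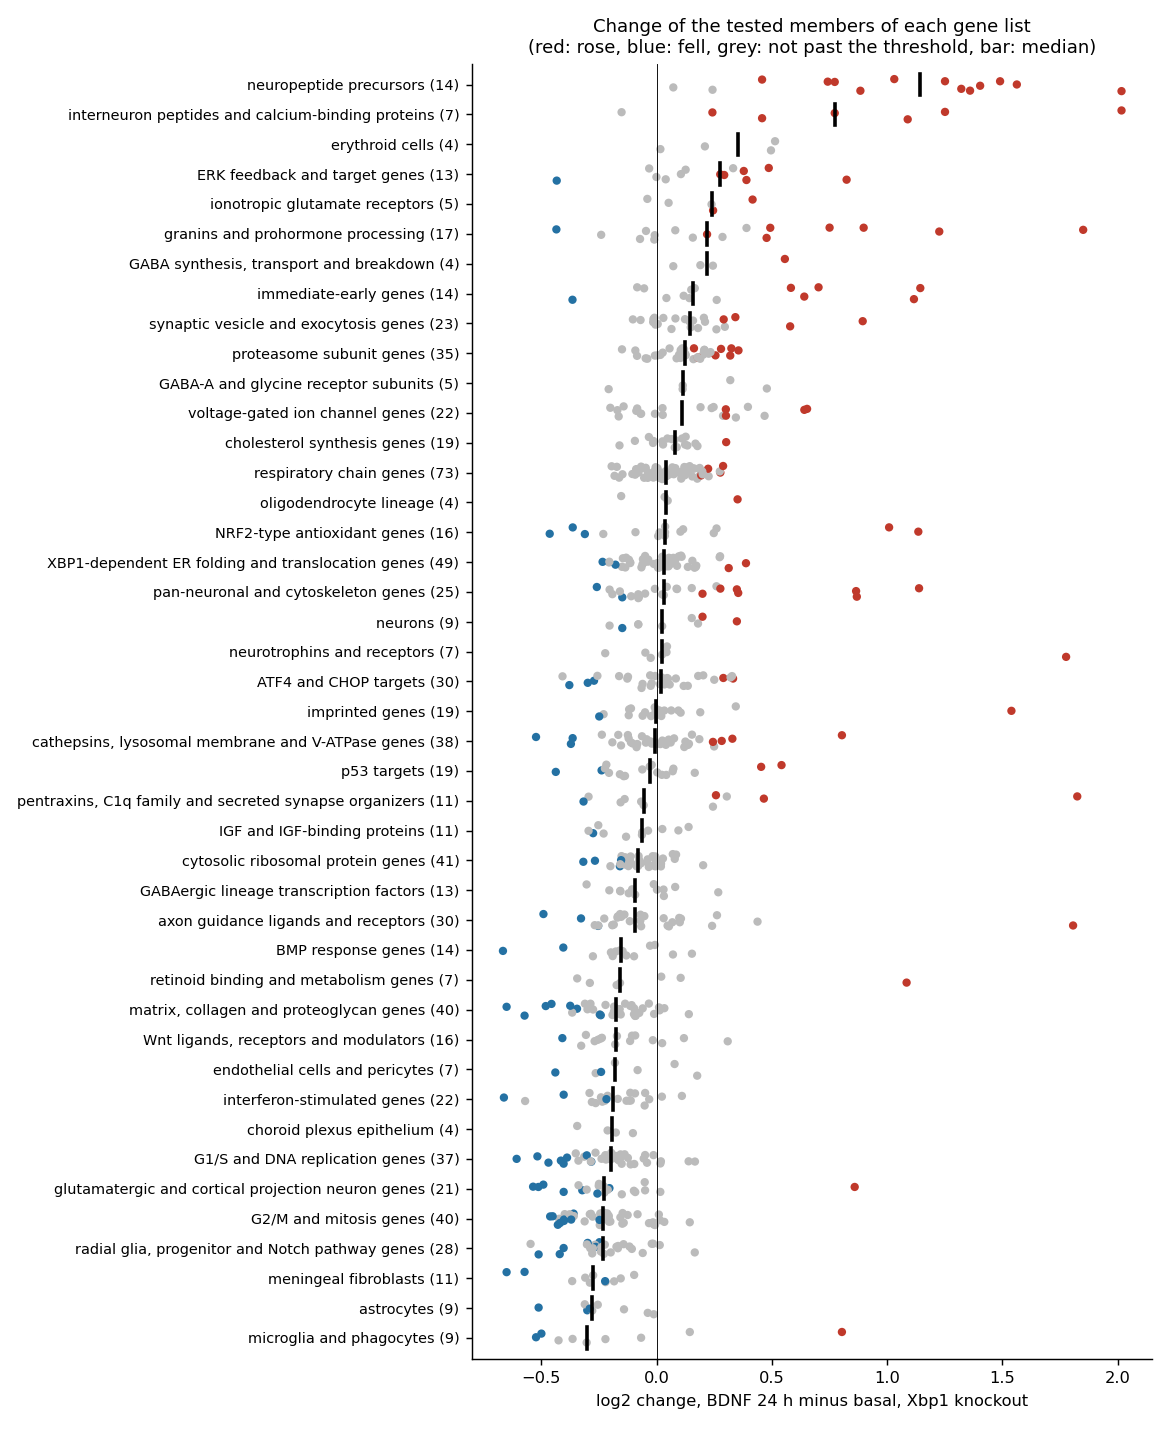
For each gene list, the points are the log2 changes (BDNF 24 h over basal, knockout) of its tested members, red where they rose, blue where they fell and grey where they did not pass, with the median as a bar and the number tested in brackets. Neuropeptide precursors have the highest median of the tested lists (1.14), and cell cycle, progenitor and matrix lists lie to the left of 0.

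Markers of GABAergic interneurons, the subject of the study's title, were raised in part. Of 7 tested interneuron peptides and calcium-binding proteins, 6 rose (85.7%, beside 5.96% of all tested genes). They include Npy, Sst, Tac1 and Cck, which are neuropeptide precursors given above. Calb1, the calcium buffer calbindin, had log2 signals of 3.64, 3.34, 3.55, 3.81 and 3.94 with BDNF, against 2.66, 2.38, 2.61, 2.57 and 2.61 without, and rose by 1.09 ± 0.09. Calb2 (calretinin) had a log2 change of -0.15 ± 0.12 and did not pass. Reln, the gene of reelin, had a small rise of 0.24 ± 0.08 whose call held in 10 of 24 alternative analyses. Pvalb, Vip, Cort, Nos1 and Htr3a were under the filter.

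The enzymes of GABA synthesis changed less. Gad1, which makes most GABA, had log2 signals of 5.44, 5.55, 5.55, 5.31 and 5.43 with BDNF, against 4.98, 5.38, 5.41, 5.33 and 5.22 in basal dishes. The groups overlapped, and the change of 0.19 ± 0.07 did not pass (adjusted p = 0.0923). A dimmer second probe set of Gad1 gave 0.52 ± 0.14 (adjusted p = 0.0256 in a fit over all probe sets), so the call depended on the probe set. Gad2, the synaptic form of the enzyme, had 0.97 to 1.26 with BDNF, against 1.04, 0.46, 0.80, 0.45 and -0.08 without. The groups overlapped, the rise of 0.56 ± 0.15 passed (adjusted p = 0.0148), and the call was lost without basal replicate 5, the lowest array. Abat, the enzyme of GABA breakdown, had a log2 change of 0.24 ± 0.12 and Slc32a1, the vesicular GABA transporter, by 0.07 ± 0.11; neither passed. With 1 of 4 tested genes of GABA synthesis, transport and breakdown past the threshold, and 0 without the 2 arrays apart from the others, the list median was 0.22. None of the 13 tested GABAergic lineage transcription factors and none of the 5 tested GABA-A and glycine receptor subunits passed, though 1 subunit did without the 2 arrays.

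Genes of the glutamatergic lineage are known for excitatory transmission and cortical projection neuron identity. Of 21 tested genes, 7 fell (33.3%) and 1 rose (4.76%), beside 5.55% and 5.96% of all tested genes. The list median was -0.23. With the intensities as deposited 0 fell and 1 rose (median -0.17), and the calls of Neurod6, Eomes and Fezf2 were lost. With probe sets averaged 4 fell. The gene that rose was Slc17a6, the vesicular glutamate transporter VGLUT2, with log2 signals of 4.23, 4.13, 4.48, 4.28 and 4.43 with BDNF and 3.39, 3.47, 3.49, 3.35 and 3.56 without (0.86 ± 0.10). Neurod6, a transcription factor of cortical projection neurons, had 1.51, 1.40, 1.68, 1.23 and 1.55 with BDNF, against 2.09, 2.02, 1.78, 2.14 and 2.02 in basal dishes, and fell by 0.54 on the log2 scale. Eomes, a marker of intermediate progenitors, fell by 0.51 and Fezf2, a deep-layer factor, by 0.49; the arrays of the groups overlapped for both. Among 5 tested ionotropic glutamate receptors, 2 rose (40%): Gria1 by 0.42 ± 0.09 and Gria2 by 0.24 ± 0.08, both AMPA receptor subunits. The Gria2 call held in 10 of 24 alternatives, and its value turned to -0.0319 when its 2 probe sets were averaged.

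Neuronal structure and excitability lists held some strong rises. Of 25 pan-neuronal and cytoskeleton genes, 7 rose (28%) and 2 fell (8%), beside 5.96% and 5.55% of all tested genes. The list median was 0.03. The neurofilament gene Nefm had log2 signals of 3.06, 3.02, 3.14, 2.95 and 3.30 with BDNF, against 2.06, 1.74, 2.03, 2.01 and 1.93 without, a rise of 1.14 ± 0.10, and Nefl and Eno2 (neuronal enolase) rose by 0.87 ± 0.10 and 0.87 ± 0.07. Map1b rose by 0.35 on its brightest probe set, and its other 2 gave -0.23 and -0.20. Of 23 synaptic vesicle genes, 4 rose (17.4%) and 0 fell, led by Rab3c (0.89 ± 0.11), a vesicle GTPase. Of 22 tested voltage-gated channels, 4 rose (18.2%), among them the potassium channels Kcnh2 (0.65 ± 0.12) and Kcna1 (0.64 ± 0.13). Summed signals of the 10 neuronal markers on the array were 290 to 341 with BDNF and 306 to 334 in basal dishes, in units of the array median, and overlapped.

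Several raised genes belonged to no raised group. Sema3e, a secreted guidance cue, had 1.64, 1.80, 2.27, 1.03 and 1.91 with BDNF, against -0.51, 0.21, -0.17, 0.06 and 0.02 without, and rose by 1.81 ± 0.16. The other 29 tested guidance genes gave 0 rises and 3 falls, including Unc5c, a netrin receptor (-0.49 ± 0.09). In the whole list 3.33% rose and 10% fell, beside 5.96% and 5.55% of all tested genes. Without the 2 arrays it had 2 rises and 5 falls. Dlk1, an imprinted Notch-ligand relative, had 2.61, 2.94, 3.03, 2.72 and 3.01 with BDNF and 0.88, 1.62, 1.47, 1.26 and 1.40 without, and rose by 1.54 ± 0.13; of the other 18 tested imprinted genes, Grb10 fell by 0.25 on the log2 scale and the rest did not pass. The uncharacterized gene 2010204K13Rik rose by 1.44 ± 0.09, Tesc, a calcium-binding protein, by 1.31 ± 0.20 and Rbp4, the plasma retinol carrier, by 1.08 ± 0.13. Tesc had basal means of -1.22 in the knockout and -0.89 in wild type, and passed the low-signal filter only through the BDNF arrays. Of 16 NRF2-type antioxidant genes, 2 rose (12.5%) and 3 fell (18.75%). Akr1b8, an aldo-keto reductase, rose by 1.14 ± 0.09 and Srxn1, sulfiredoxin, by 1.01 ± 0.12. Gsta4 fell by 0.46 and Nfe2l2, the NRF2 gene itself, by 0.36 on the log2 scale.

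The falls were shallow and were spread over proliferation, progenitor, matrix and glial genes. Of 37 G1/S and DNA replication genes, 8 fell (21.6%, beside 5.55% of all tested genes) and 0 rose (median -0.20). The falls included Mcm4, a helicase subunit (-0.42 ± 0.09), and Prim2, a primase subunit (-0.47 ± 0.11). Dimmer second probe sets of Mcm4 and Prim2 gave -0.16 ± 0.09 and -0.05 ± 0.11, and neither passed. Of 40 G2/M and mitosis genes, 9 fell (22.5%) and 0 rose (median -0.23). Nusap1, a spindle protein, was among the falls (-0.46 ± 0.11). Of 28 radial glia, progenitor and Notch genes, 6 fell (21.4%) and 0 rose (median -0.23), with Prom1 at -0.40 ± 0.10 and Fabp7, a radial glial lipid carrier, at -0.30 ± 0.08. The Fabp7 call was lost without BDNF replicate 4 or basal replicate 2. Without BDNF replicate 1 and basal replicate 5, these 3 lists had 5, 4 and 6 falls and 0, 1 and 1 rises. With the intensities as deposited they had 0 falls each, and their medians were -0.13, -0.17 and -0.17. With probe sets averaged the 3 lists had 5, 4 and 5 falls, of 36, 39 and 24 tested.

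Id2, an inhibitor of basic helix-loop-helix factors and a target of BMP signalling, had log2 signals of 4.49, 4.07, 4.41, 4.03 and 4.22 with BDNF, against 4.76, 5.03, 4.80, 5.15 and 4.82 in basal dishes. It fell by 0.67 on the log2 scale with no overlap, and Id3 fell by 0.40, a call lost without BDNF replicate 5. Id2 and Id3 were the 2 falls among 14 tested BMP response genes (14.3%, beside 5.55% of all tested genes). Recql5, a DNA helicase, had -0.07, -0.31, -1.04, -0.74 and -1.02 with BDNF and 0.36, -0.05, 0.32, 0.09 and -0.04 without, which is a fall of 0.77 with a wide spread among BDNF dishes. Sla, an adaptor that dampens receptor signalling, had 0.32, -0.01, 0.44, 0.74 and 0.55 with BDNF, against 1.06, 1.26, 0.85, 1.09 and 1.34 without, and fell by 0.71. Socs2, a suppressor of cytokine signalling, fell by 0.59 (adjusted p = 7.31e-06), and so did Socs3 (adjusted p = 0.0157). The Socs3 call was lost without BDNF replicate 2 or basal replicate 3, and another of its probe sets gave 0.01.

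Of 40 matrix, collagen and proteoglycan genes, 8 fell (20%, beside 5.55% of all tested genes) and 0 rose (median -0.17). The count of falls was 14 with quantile or 75th-percentile scaling and 2 with the intensities as deposited. Fmod (fibromodulin) had log2 signals of 1.96, 1.65, 2.21, 2.06 and 1.81 with BDNF, against 2.58, 2.52, 2.42, 2.60 and 2.82 without, a fall of 0.65. Ogn (osteoglycin) fell by 0.57 and Col8a1 by 0.58. Oas1c, a member of the interferon-induced synthetase family, had 0.49, 0.62, 0.62, 1.03 and 0.65 with BDNF, against 1.29, 1.35, 1.37, 1.23 and 1.49 in basal dishes, and fell by 0.66. In all, 3 of 22 tested interferon-stimulated genes fell (13.6%) and 0 rose. The others, Ifit1 and B2m, lost their calls when single arrays were left out. With the intensities as deposited, or with probe sets averaged, 1 of the 22 fell. Palmd, Serping1 (the C1 inhibitor), Tmem98, Bbip1, Colec12 and Chodl complete the 15 largest falls, at -0.69 to -0.58. The Tmem98 call was lost without BDNF replicate 4 or 5, and that of Col8a1 with its probe sets averaged.

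Summed signals of 3 marker lists for other cells were lower with BDNF without overlap, beside these falls. Summed signals of 14 astrocyte markers were 61.5 to 66.3 with BDNF and 72.1 to 81.95 in basal dishes, in units of the array median, without overlap. Much of these sums was 1 gene, Gja1 (mean log2 5.29 with BDNF and 5.59 in basal dishes). Of the 9 tested astrocyte markers, 3 fell (33.3%, beside 5.55% of all tested genes) and 0 rose. The calls of these 3 (Slc1a3, Gja1 and Glul) were each lost without BDNF replicate 2, and Slc1a3 is also in the radial glia list. Aqp4, S100b and Gjb6 stayed under 0.3 of the median. Sums of 15 meningeal fibroblast markers were 190 to 210 with BDNF and 220 to 264 without. Among them 3 of 11 tested fell (27.3%), 2 of which (Fmod and Ogn) are also in the matrix list. Sums of 18 microglia and phagocyte markers were 20.3 to 23.5 with BDNF and 24.8 to 29.9 without. In that list Ctss and Cd52 fell, the second not without BDNF replicate 3 or basal replicate 1, and Cd68, a lysosomal protein, rose by 0.80 ± 0.19. Endothelial and pericyte sums overlapped, at 78.6 to 90.1 with BDNF and 84.5 to 106 without, through basal replicate 2 alone. Of the 7 tested members 2 fell (28.6%, Myl9 and Acta2) and 0 rose. The Acta2 call was lost on leaving out single arrays (limma, highest adjusted p 0.073). Of the 21 markers, 4 (Pecam1, Tie1, Abcc9 and Anpep) were at the floor on all 10 arrays. Sums for the oligodendrocyte lineage, choroid plexus and erythroid cells overlapped too; 1 of 4 tested genes of the first rose (Ugt8a, lost without any of 9 single arrays), and 0 of 4 of each of the others passed. The part of these markers in the falls was not tested, and in whole-dish RNA fewer cells of a type cannot be told apart from less RNA per cell.

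Housekeeping and ER lists depended on the 2 arrays that stand apart. So did the counts over all 7436 tested genes, with 443 rises and 413 falls with these arrays and 798 and 376 without. Of 49 tested XBP1-dependent genes of ER folding and translocation, 2 rose (Sec11c by 0.39 ± 0.07 and Srp19 by 0.31 ± 0.10) and 2 fell (Lman1 and Canx), and the median was 0.03. The rises and the falls were each 4.08% of the list, beside 5.96% and 5.55% of all tested genes. All but the Sec11c call were lost when single arrays were left out. Without BDNF replicate 1 and basal replicate 5 together, 9 of the 49 rose and 0 fell (median 0.07). In wild-type dishes 8 of the 49 rose and 0 fell, with a median of 0.10, and 0 of them differed between genotypes in the test of the response. The difference, knockout minus wild type, was negative in 39 of the 49, with a median of -0.09. Over all tested genes it was negative in 3799 of 7436. This pattern of signs was not tested. Of 30 targets of ATF4 and CHOP, 2 rose and 3 fell (6.67% and 10%), and without the 2 arrays 6 rose and 1 fell. Of 35 proteasome subunit genes, 7 rose and 0 fell (20%, beside 5.96% of all tested genes; median 0.12). There were 17 rises without the 2 arrays, 11 with quantile scaling and 1 with the intensities as deposited. Respiratory chain genes had 4 rises of 73 (5.48%) and cholesterol synthesis genes 1 of 19 (5.26%), shares near the 5.96% of all genes, and without the 2 arrays these counts were 16 and 3. With quantile scaling the respiratory chain had 11. Ribosomal protein genes had 4 falls of 41 (9.76%, beside 5.55%), and 2 without the 2 arrays.

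The knockout response was then set beside that of wild-type cultures, with which it shares no array. In wild-type dishes 598 genes rose (8.04%) and 476 fell (6.4%), 14.4% of 7436 in all. Of the genes that rose in the knockout, 266 rose in wild type too, which is 60.05% of the knockout and 44.5% of the wild-type genes. For falls, 206 were shared, 49.9% of the knockout and 43.3% of the wild-type genes. Across the 7436 genes the log2 changes had a Pearson r of 0.716, a description over genes that are not independent. All but 1 of the 31 genes that rose at least 2-fold in the knockout also rose in wild type. Neuropeptide precursors had a median change of 1.14 in the knockout and 0.97 in wild type, with 12 and 11 of 14 raised.

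**Figure D4:**
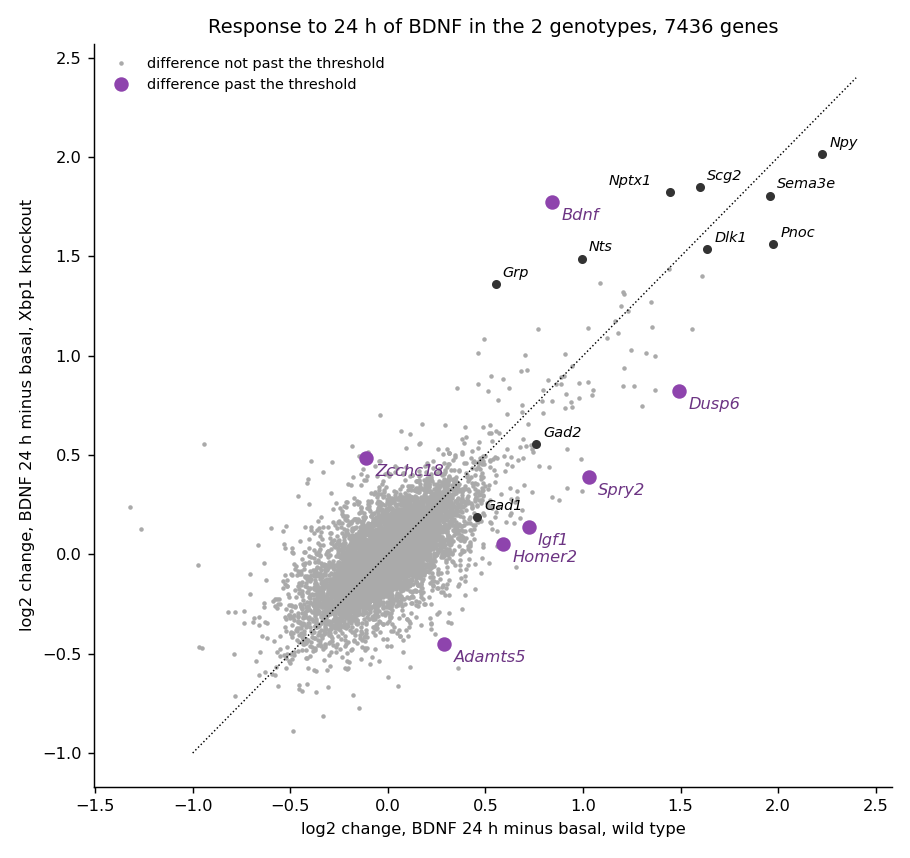
Log2 change with 24 h of BDNF in the knockout (vertical) and in wild type (horizontal) for the 7436 tested genes, with the line of equal change. Npy (knockout minus wild type -0.21), Scg2 (0.25) and Nptx1 (0.38) did not pass the test of the difference. The 7 genes whose response differed between genotypes are marked.

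A difference between the genotypes' responses passed the test in 7 genes (0.0941% of 7436), positive in 2 (0.0269%) and negative in 5 (0.0672%). In limma 455 genes had an unadjusted p under 0.05. With 1 pool of embryos for each genotype, these differences cannot be told apart from differences between the pools. Dusp6 rose by 0.82 in the knockout and by 1.49 in wild type, a difference of -0.67 with a 95% interval of -0.90 to -0.44 (adjusted p = 0.00592). Its wild-type arrays had 1.91, 1.63, 1.70, 1.69 and 1.80 with BDNF and 0.13, 0.14, 0.36, 0.32 and 0.32 without, so the basal levels of the genotypes overlapped and the BDNF levels did not. Spry2 rose by 0.39 in the knockout and by 1.03 in wild type (difference -0.64, -0.90 to -0.39, adjusted p = 0.0162). Of the 13 feedback and target genes, these 2 differed. Both calls were lost with intensities as deposited, a setting under which 0 genes differed, and that of Spry2 also without wild-type basal replicate 3 or with its 2 probe sets averaged.

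Igf1, insulin-like growth factor 1, had log2 signals of 3.26, 3.31, 3.41, 3.35 and 3.41 with BDNF, against 3.23, 3.13, 3.21, 3.25 and 3.23 in basal knockout dishes. In wild type it had 3.40, 3.19, 3.40, 3.47 and 3.48 with BDNF and 2.64, 2.70, 2.82, 2.49 and 2.69 without. The BDNF arrays of the genotypes overlapped, whereas the basal knockout arrays all stood above the basal wild-type arrays. The change was 0.14 ± 0.07 in the knockout and 0.72 in wild type (difference -0.58, -0.78 to -0.38, adjusted p = 0.00592). Of 2 dimmer Igf1 probe sets, one gave a knockout rise of 0.51 ± 0.11 and a difference of -0.08 ± 0.15, and the other a knockout change of 0.25 ± 0.12 and a difference of -0.26 ± 0.17. Both differences had the same sign as the first but did not pass. Homer2, a synaptic scaffold protein, had a log2 change of 0.05 in the knockout and rose by 0.59 in wild type (difference -0.54, -0.75 to -0.33). The Homer2 call was lost without wild-type basal replicate 3 and without the 2 knockout arrays apart from the others.

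Adamts5, an aggrecan-cleaving protease, had log2 signals of 1.76, 1.53, 1.75, 1.60 and 1.54 with BDNF, against 2.08, 2.08, 2.27, 2.11 and 1.89 in basal knockout dishes. It fell by 0.45 there and rose by 0.29 in wild type, and was the only gene called in opposite directions (difference -0.74, -1.02 to -0.46, adjusted p = 0.0126). Its wild-type arrays were lower throughout, at 0.45 to 1.14 with BDNF and 0.23 to 0.64 without. A second Adamts5 probe set gave a knockout change of -0.21 ± 0.10 and a difference of -0.66 ± 0.15. Neither passed in a fit over all probe sets. The call of the Adamts5 difference was also lost with only the arrays compared. Bdnf went the other way, with a rise of 1.78 in the knockout and 0.84 in wild type (difference 0.93, 0.54 to 1.33, adjusted p = 0.0367). That call held in 16 of 33 alternatives, and the second Bdnf probe set gave a difference of 0.31 ± 0.19. Zcchc18, a zinc-finger gene on the X chromosome, rose by 0.49 in the knockout and had a log2 change of -0.11 in wild type (difference 0.60, 0.36 to 0.83, adjusted p = 0.0162). The Zcchc18 call was lost without knockout BDNF replicate 3 or wild-type basal replicate 2 or 3.

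**Figure D5:**
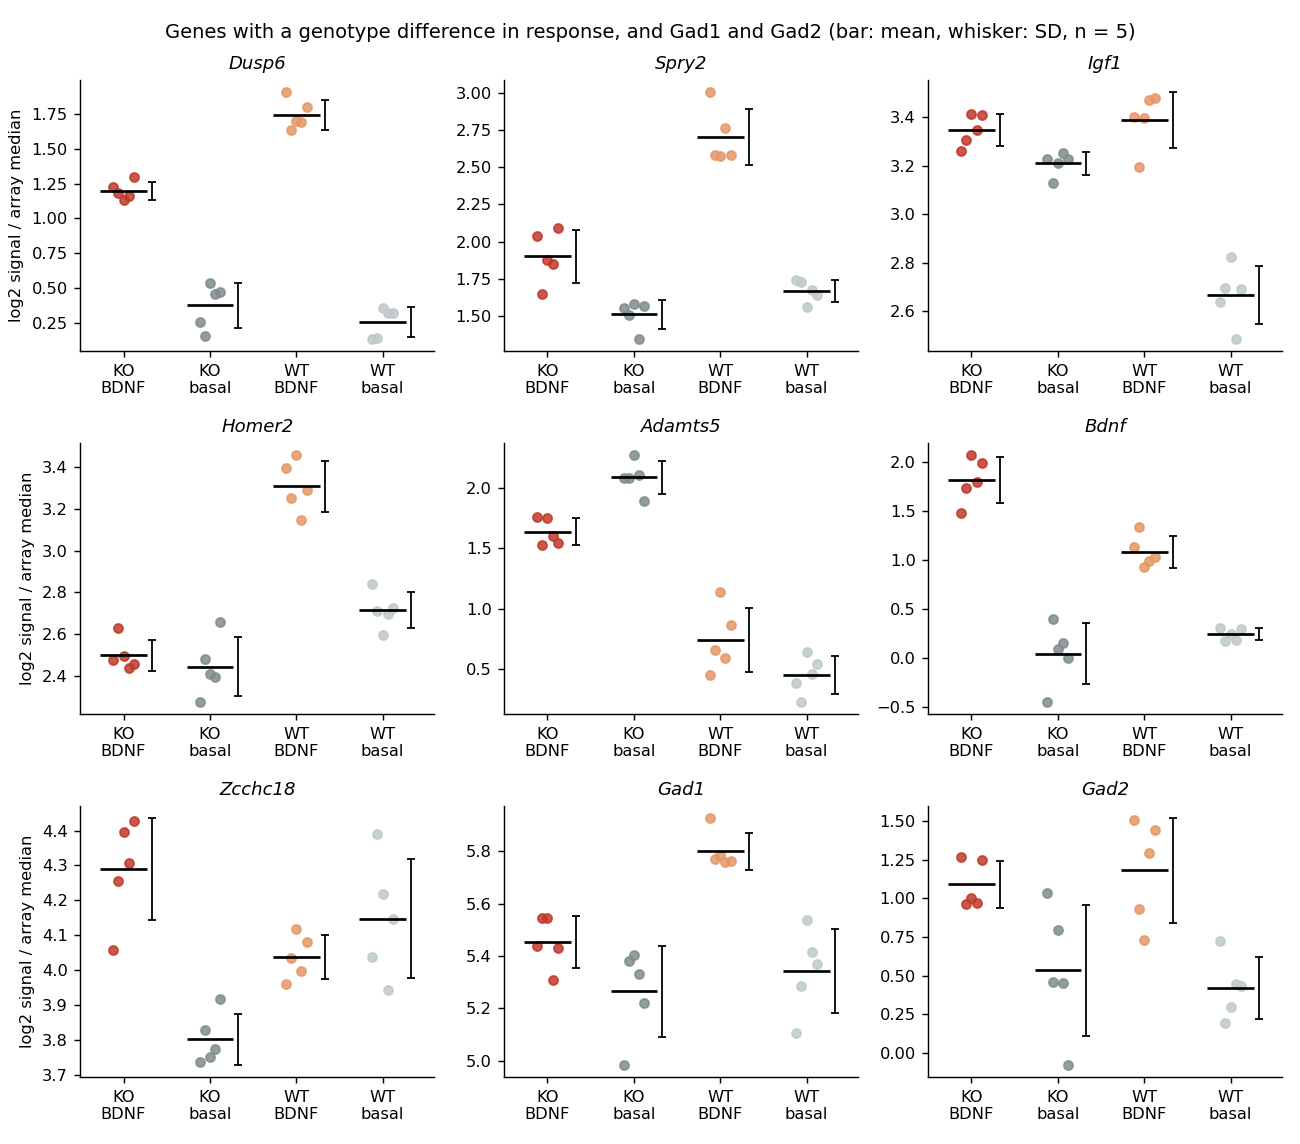
Log2 signal relative to the array median on each array for the 7 genes whose 24 h response differed between genotypes and for Gad1 and Gad2, with the groups in the order knockout BDNF 24 h, knockout basal, wild-type BDNF 24 h and wild-type basal. Dusp6, Spry2, Homer2, Bdnf and Gad1 do not overlap between the genotypes with BDNF, Igf1 and Zcchc18 do not in basal dishes, and Adamts5 in neither.

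For the GABA genes the responses were smaller in the knockout for 3 of the 4, but no difference passed the test. The difference, knockout minus wild type, was also negative in 3799 of all 7436 tested genes. Gad1 had a log2 change of 0.19 in the knockout and rose by 0.46 in wild type, where the arrays had 5.93, 5.77, 5.79, 5.76 and 5.76 with BDNF and 5.11, 5.29, 5.54, 5.41 and 5.37 without. The difference of -0.27 had an interval of -0.48 to -0.06 before adjustment and an adjusted p of 0.586. The dimmer second Gad1 probe set gave 0.52 in the knockout and 0.62 in wild type, a difference of -0.10 ± 0.19. For Gad2 the changes were 0.56 and 0.76 (difference -0.20, -0.64 to 0.23), and for Abat 0.24 and 0.53 (difference -0.29, -0.63 to 0.05). Npy rose by 2.02 in the knockout and 2.23 in wild type (difference -0.21, -0.51 to 0.09), and Sst by 0.77 and 0.84 (difference -0.07, -0.30 to 0.16). These intervals do not show that the responses were equal. Jund rose by 0.70 in the knockout and had a log2 change of -0.04 in wild type, and Grp rose by 1.36 and 0.55; the differences of 0.74 (0.32 to 1.16) and 0.81 (0.32 to 1.29) did not pass after adjustment (0.217 and 0.318).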

How the data were processed

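RNA of 30 dishes was measured on Affymetrix Mouse Genome 430A 2.0 arrays with 22690 probe sets. The deposited values are signal intensities on a linear scale, computed by the authors with MAS5, per the submitters' processing notes (version not given). From these, each array was divided by its median, floored at 0.1 of it and converted to log2. Probe sets with 1 symbol in the platform annotation (20393; 691 had several, 1606 none) were used, and the brightest stood for each of 12394 genes. RefSeq identifiers were missing for 29 probe sets, and no symbol changed. The upper 60% by mean signal, 7436 genes, were tested with limma 3.58.1 in R 4.3.3: a mean for each of 6 groups over 30 arrays, an intensity trend, two-sided moderated tests and Benjamini-Hochberg adjustment over all tested genes, threshold 0.05. "Rose", "fell" and "changed" mean past it, and ± beside a change is the standard error. The procedure was tested on simulated data.

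Named genes are Xbp1, the 15 largest rises and 15 largest falls among called genes without overlap between groups, up to 4 called members of each list, all tested neuropeptide, GABA synthesis, interneuron and neurotrophin genes, and all genes with a genotype difference; Th, Cltb and Mitf were named after their motifs were seen, and Lhx2, Lhx6 and the cell markers as checks of the labels. The comparisons, gene lists and rules were chosen with earlier results of these data known. Alternatives were quantile and 75th-percentile scaling, values as deposited, another floor (0.05), a pseudocount (0.1), no filter or the upper 40%, the mean of probe sets, only the arrays compared, a replicate block, no trend, array weights, the Gapdh ratio as covariate, and leaving out each array. No scan date was given in the sources used here.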

Additional observations from a re-analysis of the deposited data

Results flagged for a closer look

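In 310 groups of 5 knockout arrays (155 named genes), 14 arrays lay far from the rest of their group. Chance gives about 1 in 20 groups, and the number found was not above that rate. In log2 signal, 6 of the 14 were BDNF replicate 1, the array apart on the second principal component: Pnoc (2.71, others 3.00 to 3.10), Nxph1 (0.19, others 0.83 to 0.98), Syt4 (3.98), Ndufs3 (3.93), Psmd13 (3.31) and Gap43 (6.17), each the lowest of its group. Other BDNF arrays were low for Pola1 (-0.83, replicate 2) and Kif2c (0.55, replicate 4) and high for Ugt8a (0.92, replicate 2) and Reln (4.62, replicate 4). Basal arrays were low for Tac1 (1.70, others 2.63 to 2.84, replicate 3), Lgi1 (0.48, replicate 3) and Id3 (2.62, replicate 2) and high for Igfbp2 (5.32, replicate 5).

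The response to 24 h of BDNF, as the log2 change in the knockout minus that in wild type, differed between the genotypes by the limma test of the difference itself in 7 genes. It was smaller in the knockout, or of opposite sign, for Adamts5 (-0.74), Dusp6 (-0.67), Spry2 (-0.64), Igf1 (-0.58) and Homer2 (-0.54), and larger for Bdnf (0.93) and Zcchc18 (0.60).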

How the results depend on the processing

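The 856 calls of the knockout response became 201 with values as deposited, in which case wild type had 275, and 1584 with array weights; leaving out 1 array at a time gave 561 to 963. For wild type that range was 882 to 1087. The genotype difference, 7 genes, became 13 with quantile scaling, 12 with the 75th percentile, 0 with values as deposited, 4 with the upper 40% of genes, 4 with the mean of probe sets, 11 without the trend and 22 with array weights. Leaving out 1 array gave 3 (without wild-type basal replicate 3) to 16 (without wild-type basal replicate 4), and 11 without knockout BDNF replicate 2. Scaling moved the median change of all genes by under 0.1. The cause of these shifts was not tested. With the mean of probe sets, Gria2 (-0.0319) and Map1b (-0.0257) changed direction, where other probe sets of these genes gave negative values. Of 140 named genes called in the knockout, 61 kept the call in every alternative that tested them and 79 lost it in at least 1. Of 823 further probe sets of 480 called genes, 648 had the same sign, and 1 of them (Atp8a1) passed in the opposite direction. Replicate numbers shared by the groups did not pair the dishes: deviations of same-numbered knockout arrays correlated at -0.17 to 0.13, and only replicate 5 matched its own number best. With number as a replicate block, 889 genes were called in the knockout, 1152 in wild type and 8 for the difference.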

Other observations

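The other genes that rose at least 2-fold in the knockout, chosen after their values were seen, include Rgs10, Rgs4, Stc1, Pde1a, Ecel1 and Acbd3. Rgs10 and Rgs4, which speed the shut-off of G proteins, rose by 1.13 and 1.002 on the log2 scale, against 0.77 and 0.70 in wild type. Stc1, a secreted glycoprotein, rose by 1.01 and 1.33, Pde1a, a calmodulin-dependent phosphodiesterase, by 1.001 and 1.37, and Ecel1, a neuronal metalloprotease relative, by 1.17 and 1.16 in the knockout and in wild type. None of these differed between the genotypes in the test of the response. Acbd3, a Golgi protein, rose by 1.02 with a standard error of 0.24, the widest of the 31, and was not called in wild type (0.46).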
